A study of Mus musculus with 4 samples.

Results

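Differentiation of C2C12 cells carrying an siRNA against MUNC was described as the log2 difference between 2 arrays, differentiating siMUNC cells minus proliferating siMUNC cells. C2C12 is an established mouse myoblast line, and MUNC is a long noncoding RNA made upstream of Myod1. Proliferating cells were kept in 10% fetal bovine serum, and differentiating cells were collected 3 days after a switch to 2% horse serum at 80% confluence. The labels give 4 groups: control siRNA proliferating, siMUNC proliferating, control siRNA differentiating and siMUNC differentiating. Each group is 1 array of total RNA from this line with no further allele or agent named in the labels, and neither the depth of the knockdown nor the siRNA sequence is given in the sources used here. MUNC was paired with 0 named transcript clusters, so its own level was not analysed here and these data do not check the knockdown. With a single array for each group there are no replicates, so every difference below stands without a test or a p-value. The number of arrays sets the limit on precision. Genes were represented by 1 transcript cluster each, and a gene was kept when the higher of its values on the siMUNC arrays reached a log2 level of 8.498, the median over genes of their mean level on all 4 arrays. This rule kept 7672 of 14860 genes. The members just inside it were Pask, Sec22c, Siah1b, Zup1 and Pex7, with higher values from 8.500 to 8.504, and the genes just outside were Aqp2, Gstt3, Rnaseh1, Snrpd1 and Btbd17, with higher values from 8.496 to 8.497.

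When serum is withdrawn, myoblasts leave the cell cycle, turn on the transcription factor myogenin, fuse, and assemble contractile sarcomeres. MyoD and MEF2 factors bind regulatory DNA of muscle genes and switch them on, while Id proteins hold back the partners that MyoD needs. A sarcomere is built of myosin thick filaments and actin thin filaments anchored in Z-discs, and the calcium that makes it contract is stored in the sarcoplasmic reticulum and released at triads.

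After the serum switch the siMUNC cells had higher values of contractile, calcium-handling and acetylcholine receptor genes and lower values of mitotic and DNA replication genes. A log2 difference of 1 is 2-fold, and 224 members were at least 2-fold higher, 2.92% of them, while 103 were at least 2-fold lower, 1.34%. Over all 14860 genes the shares were 2.01% and 0.828%, and for control differentiation over all genes they were 3.53% higher and 4.08% lower. The middle of the distribution hardly moved: the median difference of the members was -0.05, their 5th and 95th percentiles were -0.63 and 0.70, and 6732 members (87.7%) lay within 1.5-fold. The upper tail reached further than the lower, with 23 members past 8-fold higher, 8 of them past 16-fold, and 0 past 8-fold lower. Members entered by different routes: 7062 were above the level threshold on both siMUNC arrays, and 102 of these were 2-fold higher and 60 lower. Another 319 passed only through the differentiating array, 122 of them 2-fold higher, and 291 only through the proliferating array, 43 of them 2-fold lower. Genes of these last 2 kinds had to differ, so the counts over members describe what the rule kept and support no statement by themselves. Of the 7188 genes below the threshold on both arrays, 75 (1.04%) were 2-fold higher and 20 (0.278%) lower. Counts over gene lists below take in every measured gene of a list, members or not, and are to be read beside the shares over all genes. In bulk RNA, fewer cells of a type and less RNA per cell cannot be told apart, for every value below.

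The 30 members with the highest difference were led by genes of the sarcomere and its calcium store, and 20 of the 30 belong to the muscle gene lists described below. Of these 30, 27 lay under the level threshold in proliferating cells, so they were members only through the differentiating array. Myl1, a light chain of fast myosin, read 6.97 in proliferating and 12.35 in differentiating siMUNC cells, against 8.02 and 13.19 in control cells. Casq2, a calsequestrin that binds calcium inside the sarcoplasmic reticulum, read 6.15 and 10.82 with siMUNC and 6.29 and 12.54 with the control siRNA. Tnnc2, the fast calcium-binding troponin subunit, went from 7.47 to 11.24 with siMUNC and from 7.09 to 12.71 in control cells. For all 3 genes the differentiating array was far above the proliferating one in both arms, and the differentiating siMUNC array stayed below the differentiating control array. Genes of other kinds stood among them: Dpt, the matrix protein dermatopontin (4.70 on the log2 scale), Cd36, a fatty acid and thrombospondin receptor (4.00, and 2.36 at the lowest under other scalings, with a dim proliferating value of 4.76), Hjv, the BMP co-receptor hemojuvelin (3.90), and Chrdl1, a secreted BMP antagonist (3.35).

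**Figure D1:**
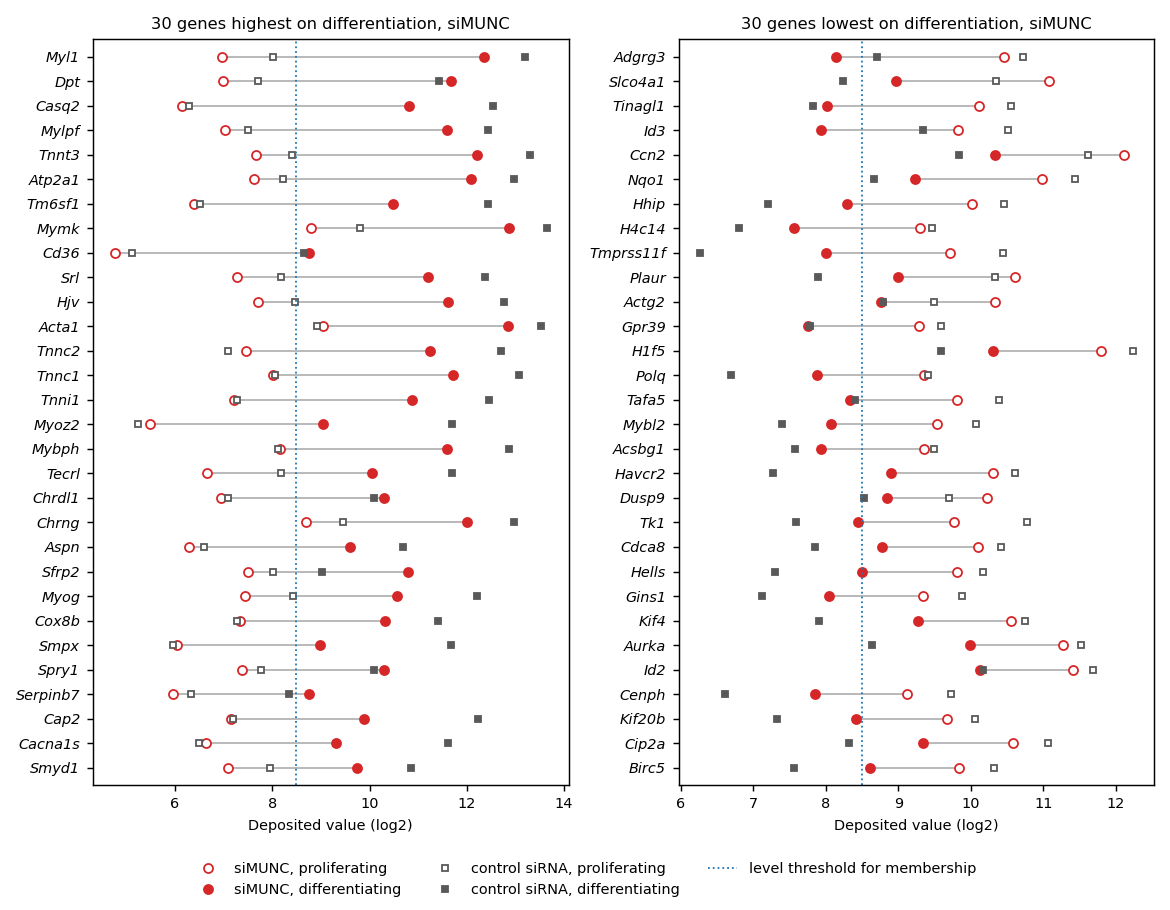
Log2 values of the 30 members with the highest and the 30 with the lowest difference in siMUNC cells on an axis of log2 level, with open symbols for proliferating and filled symbols for differentiating cells, circles for siMUNC, squares for the control siRNA and a dotted line at the level threshold; each symbol is 1 array. Myl1 runs from 6.97 to 12.35 and Id3 from 9.82 to 7.94 between the proliferating and differentiating siMUNC arrays.

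Among 19 measured myogenic regulators, 15 of them members, 4 were at least 2-fold higher and 0 lower, with a median difference of 0.29 against -0.02 over all genes. Myog, the gene of myogenin, read 7.45 on the proliferating and 10.56 on the differentiating siMUNC array, and 8.43 and 12.21 on the control arrays. Smyd1, a muscle lysine methyltransferase, read 7.10 and 9.74 on the siMUNC arrays and 7.95 and 10.86 on the control arrays. Mef2c, a MEF2 transcription factor, read 7.24 and 8.88 on the siMUNC arrays and 8.23 and 10.93 on the control arrays. These regulators were higher after the switch in both arms, with the differentiating siMUNC array below the differentiating control array for each. Myf6, a MyoD family factor that stayed just under the level threshold, differed by 1.45 with siMUNC and by 0.49 in control cells, going from 7.01 to 8.46 and from 7.75 to 8.24. Myod1 itself had the lowest difference of the list, -0.25, with 10.96 and 10.70 on the siMUNC arrays, while the control arrays read 11.46 and 11.75. Its differences lay inside 1.5-fold in both arms, in opposite directions, and the siMUNC arrays were -0.51 and -1.04 from the control arrays of the same state.

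Of 22 genes on the thick filament list 10 were measured, 5 of them members, and no sarcomeric myosin heavy chain was among the 10. Of these 10, 8 were at least 2-fold higher and 0 lower. The median difference was 2.30 with siMUNC and 4.09 in control cells. The gap between the arms varied widely within this list. Mylpf, the phosphorylatable light chain of fast myosin, read 7.04 and 11.59 on the siMUNC arrays and 7.50 and 12.43 on the control arrays, so that its differences of 4.55 and 4.93 were close. Myom1, a myomesin of the M-band that stayed under the level threshold, read 6.08 and 8.25 on the siMUNC arrays and 5.99 and 10.58 on the control arrays, and its difference was 2.17 against 4.59. Mybpc2, fast myosin-binding protein C and also dim, read 6.80 and 7.33 on the siMUNC arrays and 6.44 and 9.38 on the control arrays, and its siMUNC difference of 0.53 missed 2-fold. Myom1 and Mybpc2 stayed more than 2 log2 units short of the control difference, and so did the light chain Myl6b, at 1.06 against 3.09. Unc45b, a myosin-folding chaperone just under the level threshold, differed by 1.31 with siMUNC and 3.48 in control cells, and Mybph, a myosin-binding protein, by 3.43 and 4.75.

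Of 12 thin filament genes, 11 of them members, 9 were at least 2-fold higher and 0 lower, with medians of 2.40 and 3.73 in siMUNC and control cells. Acta1, skeletal alpha-actin, read 9.04 and 12.85 on the siMUNC arrays and 8.93 and 13.54 on the control arrays. Tnnt3, the fast troponin that binds tropomyosin, read 7.66 and 12.21 on the siMUNC arrays and 8.40 and 13.29 on the control arrays. Tnni1, the slow inhibitory troponin, read 7.21 and 10.87 on the siMUNC arrays and 7.27 and 12.45 on the control arrays. All 12 genes had the lower signed difference in the siMUNC arm, under each scaling tried, and so did 53.8% of all genes. Tpm1, a tropomyosin already bright in proliferating cells, differed by only 0.04 and read 12.92 and 12.96 with siMUNC.

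The members furthest below the control difference, Ankrd2, Myoz2 and Smpx, belong to the Z-disc and costamere list (-2.91, -2.90 and -2.78, siMUNC minus control). Of its 23 measured genes, 15 of them members, 10 were at least 2-fold higher with siMUNC and 15 in control cells, 0 were 2-fold lower in either arm, and the medians were 0.81 and 1.88. All 23 had the lower difference in siMUNC cells, under each scaling tried. Myoz2, a calsarcin that tethers calcineurin to the Z-disc, read 5.49 and 9.05 on the siMUNC arrays and 5.24 and 11.70 on the control arrays. Ankrd2, a stretch-responsive ankyrin repeat protein, read 8.11 and 9.71 on the siMUNC arrays and 7.87 and 12.37 on the control arrays. Smpx, a small muscle protein of the costamere, read 6.04 and 8.98 on the siMUNC arrays and 5.96 and 11.68 on the control arrays. For these 3 genes the proliferating arrays of the arms lay at most 0.25 log2 units apart, and the differentiating siMUNC array fell between the proliferating arrays and the differentiating control array. Cap2, an actin-severing cyclase-associated protein, differed by 2.74 and 5.05, Actn2, the Z-disc crosslinker alpha-actinin, by 1.36 and 4.06, and Hspb7, a muscle small heat shock protein, by 1.09 and 4.18, the last 2 under the level threshold with siMUNC. Ankrd1, a relative of Ankrd2, stood at 13.05 and 12.87 on the siMUNC arrays and was the lowest of the list.

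Triad and sarcoplasmic reticulum genes followed, with 16 of 22 measured genes members, 11 of 22 at least 2-fold higher, 0 lower and medians of 0.94 with siMUNC and 2.20 in control cells. All 22 differences were lower in the siMUNC arm, under each scaling tried. Atp2a1, the SERCA1 pump that refills the calcium store, read 7.62 and 12.09 on the siMUNC arrays and 8.22 and 12.96 on the control arrays. Srl, sarcalumenin, a calcium-binding protein of the reticulum lumen, read 7.29 and 11.21 on the siMUNC arrays and 8.18 and 12.37 on the control arrays. Cacna1s, the voltage sensor of the T-tubule, read 6.65 and 9.31 on the siMUNC arrays and 6.49 and 11.62 on the control arrays. Atp2a1 and Srl differed from the control difference by -0.27 and -0.26, and Cacna1s by -2.46. Ryr1, the calcium release channel, differed by 2.64 against 3.53, Trdn, which links it to calsequestrin, by 2.24 against 4.37, and Casq1, the skeletal calsequestrin, by 1.81 against 4.96, with Trdn and Casq1 dim on both siMUNC arrays. Cavin4, a caveola protein of muscle, stood at 1.04, next to the threshold, and Jph1, a junctophilin that ties reticulum to T-tubule, at 0.83.

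Of 12 neuromuscular junction genes, 10 of them members, 3 were at least 2-fold higher and 0 lower, with medians of 0.43 and 1.04. Chrng, the fetal gamma subunit of the acetylcholine receptor, read 8.69 and 12.01 on the siMUNC arrays and 9.45 and 12.96 on the control arrays. Chrnd, the delta subunit, read 9.59 and 11.23 on the siMUNC arrays and 10.33 and 12.44 on the control arrays. Lrp4, the agrin receptor, read 9.04 and 10.96 on the siMUNC arrays and 9.56 and 11.44 on the control arrays. These genes read clearly higher in differentiating cells of both arms, and the difference of Lrp4 was 1.93 with siMUNC and 1.88 in control cells, an order that turned under 3 of 5 scalings. Musk, the receptor kinase that clusters acetylcholine receptors, missed 2-fold at 0.81, and Dok7, its adaptor, stood at 0.57. The other receptor subunit genes Chrna1, Chrnb1 and Chrne also missed 2-fold with siMUNC, at 0.27, 0.40 and 0.19. Of 17 adhesion and fusion genes 2 were at least 2-fold higher and 0 lower, and the list median of 0.03 turned sign when each array was centred on its median. Mymk, the membrane protein myomaker that fusion requires, read 8.80 and 12.87 on the siMUNC arrays and 9.80 and 13.65 on the control arrays, a difference of 4.08 against 3.85 in control cells. Dysf, the membrane-repair protein dysferlin, differed by 1.28 against 2.70. Mymk thus differed slightly more with siMUNC than with the control siRNA, from a lower start.

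Of 20 muscle energy genes, 14 of them members, 7 were at least 2-fold higher and 0 lower, with medians of 0.51 and 1.11. Ckm, muscle creatine kinase, read 8.16 and 9.92 on the siMUNC arrays and 7.91 and 11.55 on the control arrays. Pygm, muscle glycogen phosphorylase, read 7.79 and 10.00 on the siMUNC arrays and 7.86 and 12.27 on the control arrays. Cox8b, a muscle subunit of cytochrome oxidase, read 7.34 and 10.32 on the siMUNC arrays and 7.27 and 11.42 on the control arrays. In all 3 the siMUNC cells started at most 0.25 from control and ended more than 1 log2 unit below it. Mb (myoglobin), Pgam2 (muscle phosphoglycerate mutase, just under the level threshold) and Fabp3 (a fatty acid carrier) differed by 1.37, 1.40 and 1.01 with siMUNC and by 2.77, 3.47 and 2.48 in control cells. Among 11 muscle ubiquitin ligases and adaptors, Klhl31 (1.44) and Fbxo32, the gene of atrogin-1 (1.10), were past 2-fold and 0 were lower, with a list median of 0.11 against 0.59 in control cells.

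Promoter windows from 250 bases before to 50 after the annotated start, credited to RefSeq on build GRCm38.p6, are shown for genes of both ends of the response. The motif searched in muscle genes was the E-box CANNTG on both strands, which MyoD family proteins bind, and its subset CAGCTG. The general motif CANNTG lay in 72.3% of 32851 windows of all genes and CAGCTG in 16.3%. Of the 30 highest members 24 had a window, 25 windows in all, and 13 of these (52%) held CAGCTG. For the thick filament, thin filament, Z-disc, triad and neuromuscular lists together it was 29 of 68 windows (42.6%). A match is a description of these letters only. The windows of Myog (chr1:134289754-134290053 on the plus strand), Chrng (chr1:87205561-87205860 on the plus strand) and Casq2 (chr3:102086165-102086464 on the plus strand) follow with CANNTG in capitals, and of these 3 only the Chrng window holds CAGCTG.
Myog: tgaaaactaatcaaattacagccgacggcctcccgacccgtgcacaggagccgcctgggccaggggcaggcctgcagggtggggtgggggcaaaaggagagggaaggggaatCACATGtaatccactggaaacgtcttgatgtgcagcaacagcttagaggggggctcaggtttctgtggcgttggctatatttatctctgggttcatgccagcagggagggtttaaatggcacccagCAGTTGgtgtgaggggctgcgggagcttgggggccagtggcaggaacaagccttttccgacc
Chrng: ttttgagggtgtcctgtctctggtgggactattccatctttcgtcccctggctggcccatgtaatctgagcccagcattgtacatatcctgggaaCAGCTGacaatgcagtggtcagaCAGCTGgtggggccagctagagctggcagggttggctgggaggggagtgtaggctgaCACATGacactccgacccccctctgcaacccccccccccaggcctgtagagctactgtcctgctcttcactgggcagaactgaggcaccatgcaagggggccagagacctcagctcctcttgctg
Casq2: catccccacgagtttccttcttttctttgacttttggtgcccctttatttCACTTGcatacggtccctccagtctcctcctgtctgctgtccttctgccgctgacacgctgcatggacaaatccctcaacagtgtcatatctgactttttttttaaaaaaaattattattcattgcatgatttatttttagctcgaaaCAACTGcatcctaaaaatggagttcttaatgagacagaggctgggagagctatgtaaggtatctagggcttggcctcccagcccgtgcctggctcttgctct

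At the lower end stood the cell cycle. All 28 measured genes of mitosis and the kinetochore were members and had lower values in differentiating siMUNC cells, 13 of them by at least 2-fold (10 to 18 under other scalings) and 0 higher, whereas over all genes 53.7% were lower. The median difference was -0.99 with siMUNC and -2.54 in control cells, where all 28 were at least 2-fold lower. Aurka, the spindle-pole kinase Aurora A, read 11.27 and 9.99 on the siMUNC arrays and 11.52 and 8.63 on the control arrays. Cdca8, the gene of borealin in the chromosomal passenger complex, read 10.09 and 8.78 on the siMUNC arrays and 10.42 and 7.85 on the control arrays. Birc5, the gene of survivin in the same complex, read 9.84 and 8.61 on the siMUNC arrays and 10.32 and 7.56 on the control arrays. In each case the siMUNC cells started below control and ended above it. Over the list the siMUNC arrays were lower by a median of 0.33 in proliferating cells (-0.33, siMUNC minus control) and higher by 1.16 in differentiating cells, comparisons that share arrays with the differentiation differences. Ercc6l, a mitotic DNA translocase, had the widest gap, with 8.89 and 7.81 against 9.25 and 5.95. Plk1, a mitotic kinase, gave -1.12, and a second, dimmer cluster of this gene gave -0.14. Many mitosis genes lay near 2-fold: Bub1 (-1.01) and Tpx2 (-1.01) were just past it, and Bub1b (-0.98) and Ndc80 (-0.97) just short.

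Of 24 DNA replication genes, 23 of them members, all were lower, 6 of them at least 2-fold (4 to 9 under other scalings), with medians of -0.83 with siMUNC and -2.02 in control cells. Tk1, thymidine kinase, read 9.77 and 8.44 on the siMUNC arrays and 10.77 and 7.59 on the control arrays. Gins1, a subunit of the replicative helicase complex, read 9.35 and 8.05 on the siMUNC arrays and 9.88 and 7.12 on the control arrays. Mcm5, another helicase subunit, read 11.00 and 9.87 on the siMUNC arrays and 11.43 and 8.87 on the control arrays. Every one of these differentiating siMUNC values lay between the proliferating values and the differentiating control value. Among 16 cyclin and E2F genes of the G1 to S step, 3 were at least 2-fold lower and 0 higher, with medians of -0.41 and -1.27. Mybl2, a transcription factor of late cell cycle genes, differed by -1.47 against -2.69, Ccne2, cyclin E2, by -1.18 against -3.10, and E2f7, a repressive E2F, by -1.01 against -2.45. Among 15 genes of cell cycle exit, 2 were at least 2-fold higher and 0 lower, with a median of 0.16. Gadd45a, a stress-induced growth arrest gene, went from 9.14 to 10.69 with siMUNC and from 9.07 to 11.44 in control cells. Gas1, a growth arrest gene of the cell surface, went from 10.34 to 11.42 and from 10.83 to 11.67.

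The windows of mitotic genes were searched for CCAAT, the box bound by NF-Y, and TTTGAA, a form of the cell cycle homology region, on both strands. CCAAT lay in 17 of 22 windows of the mitosis list (77.3%) against 37.4% of all windows. TTTGAA lay in 16 of 22 (72.7%) against 17.9%. In the windows of the 30 lowest members the shares were nearer to those of all windows. CCAAT lay in 11 of these 28 windows (39.3%) and TTTGAA in 7 (25%). Aurka (chr2:172370521-172370820 on the minus strand) and Cdca8 (chr4:124936868-124937167 on the minus strand) are shown as examples. Both are mitosis genes among the 30 lowest members, and both windows hold both motifs, so they do not stand for the 30 lowest. Matches are in capitals (ATTGG is CCAAT on the other strand, and 1 TTTGAA in the Cdca8 window overlaps a CCAAT match).
Aurka: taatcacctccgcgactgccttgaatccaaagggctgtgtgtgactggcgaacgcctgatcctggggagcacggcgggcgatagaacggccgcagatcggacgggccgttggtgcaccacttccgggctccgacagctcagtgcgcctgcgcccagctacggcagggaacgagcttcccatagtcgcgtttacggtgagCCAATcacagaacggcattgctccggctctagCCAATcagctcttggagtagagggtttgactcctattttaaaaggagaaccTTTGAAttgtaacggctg
Cdca8: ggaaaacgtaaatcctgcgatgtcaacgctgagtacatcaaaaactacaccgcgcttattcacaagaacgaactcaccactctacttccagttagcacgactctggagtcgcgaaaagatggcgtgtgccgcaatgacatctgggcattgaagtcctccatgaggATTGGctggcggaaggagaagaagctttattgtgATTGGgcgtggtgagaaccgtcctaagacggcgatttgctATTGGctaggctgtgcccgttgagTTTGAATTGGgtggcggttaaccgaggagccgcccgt

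The 30 lowest members included 8 genes of the cell cycle lists. In differentiating cells 16 of the 30 fell under the level threshold, so these were members only through the proliferating array. Adgrg3, an adhesion G protein-coupled receptor, read 10.46 and 8.14 on the siMUNC arrays and 10.72 and 8.70 on the control arrays. Slco4a1, an organic anion transporter, read 11.08 and 8.97 on the siMUNC arrays and 10.34 and 8.24 on the control arrays. Tinagl1, a matricellular protein, read 10.11 and 8.02 on the siMUNC arrays and 10.56 and 7.82 on the control arrays. All 3 were lower in differentiating cells of both arms, by differences of -2.31 and -2.02 for Adgrg3, -2.11 and -2.10 for Slco4a1 and -2.09 and -2.74 for Tinagl1, siMUNC first. Id1, Id2 and Id3, which block MyoD's partner proteins, were the 3 genes of a list of 17 repressors that were at least 2-fold lower, and the list median of 0.03 turned sign when arrays were centred. Id3 read 9.82 and 7.94 on the siMUNC arrays and 10.52 and 9.34 on the control arrays, so its difference of -1.88 was larger in size than the -1.18 of control cells. Id1 and Id2 gave -1.22 and -1.27 with siMUNC and -1.39 and -1.51 in control cells. Heyl, a Notch target, was the single repressor past 2-fold higher, at 1.15. Ccn2, the secreted matricellular protein also called CTGF, differed by -1.79 against -1.78, Plaur, the urokinase receptor, by -1.62 against -2.44, and Nqo1, a quinone reductase, by -1.74 against -2.78. Tagln and Actg2, smooth muscle cytoskeletal genes, were 2 of the 4 lower members not past 2-fold in control cells, at -1.08 and -1.58 against -0.31 and -0.70. H4c14 (-1.73) and H1f5 (-1.49) are histone genes with near-identical copies, so their values are uncertain.

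Set against control differentiation, which uses 2 other arrays, the siMUNC response was narrower: the standard deviation of the differences across members was 0.482 with siMUNC and 0.735 in control cells. Over the same members, 304 (3.96%) were at least 2-fold higher and 483 (6.3%) lower in control cells. Of the 224 members higher with siMUNC, 174 were also at least 2-fold higher in control cells and 134 had the smaller difference in siMUNC cells. Of the 103 lower members, 99 were also past 2-fold in control cells and 93 had the smaller difference in siMUNC cells. By sign, 53.8% of all genes had the lower difference with siMUNC and 46.2% the higher. By size, 63.7% of the 6024 members with a mean of both arms from -0.5 to 0.5 had the smaller difference with siMUNC. The 134 of 224 lie near these shares. The medians of these 103 were -1.14 with siMUNC and -2.50 in control cells, and those of the 224 higher members 1.41 and 1.60. By 1 log2 unit or more, 68 of the 103 and 44 of the 224 had the smaller difference with siMUNC, and 0 and 11 the larger. Both sets were picked on the siMUNC difference, which favours large siMUNC values. Grouped instead by the mean of both arms, the 24 members below -2 had medians of -1.36 and -2.85, and the 268 members from -2 to -1 had -0.90 and -1.99. At the other end the 34 members at 3 or more had medians of 3.41 and 4.35, and the 169 members from 1 to 2 had 1.12 and 1.46. The difference of the differences was at least 1 for 221 members (2.88%) and at most -1 for 71 (0.925%).

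**Figure D2:**
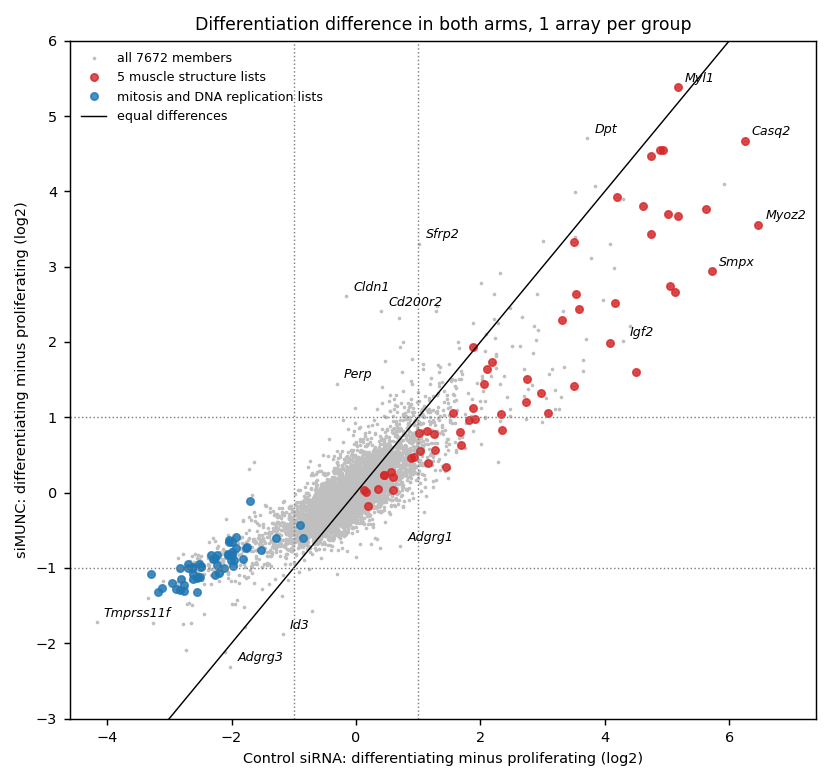
Log2 difference on differentiation in control cells (x axis) against siMUNC cells (y axis) for the members, each point 1 gene, with the line of equal difference. Myoz2 lies at 6.46 and 3.56, and Sfrp2 at 1.01 and 3.30.

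Muscle genes that ended below control had started at different levels. The genes plotted and named for this were chosen after their values were seen, and these knockdown comparisons share arrays with the differentiation differences. Myog, Mymk, Myl1 and Srl started -0.98, -1.0, -1.05 and -0.90 from control in proliferating cells and ended -1.64, -0.78, -0.83 and -1.16 from it in differentiating cells. Each of these was already below control on the proliferating array. Myoz2, Ankrd2, Smpx and Pygm started 0.25, 0.25, 0.08 and -0.07 from control and ended -2.65, -2.66, -2.70 and -2.27 from it. These were close to control on the proliferating array. Over the lists, the median of siMUNC minus control was -0.01 in proliferating and -1.65 in differentiating cells for the thick filament, 0.11 and -1.31 for the Z-disc and -0.05 and -1.01 for the triad, beside 0.04 and 0.01 over all genes. The proliferating medians of the thick filament and the triad turned sign under some scalings.

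**Figure D3:**
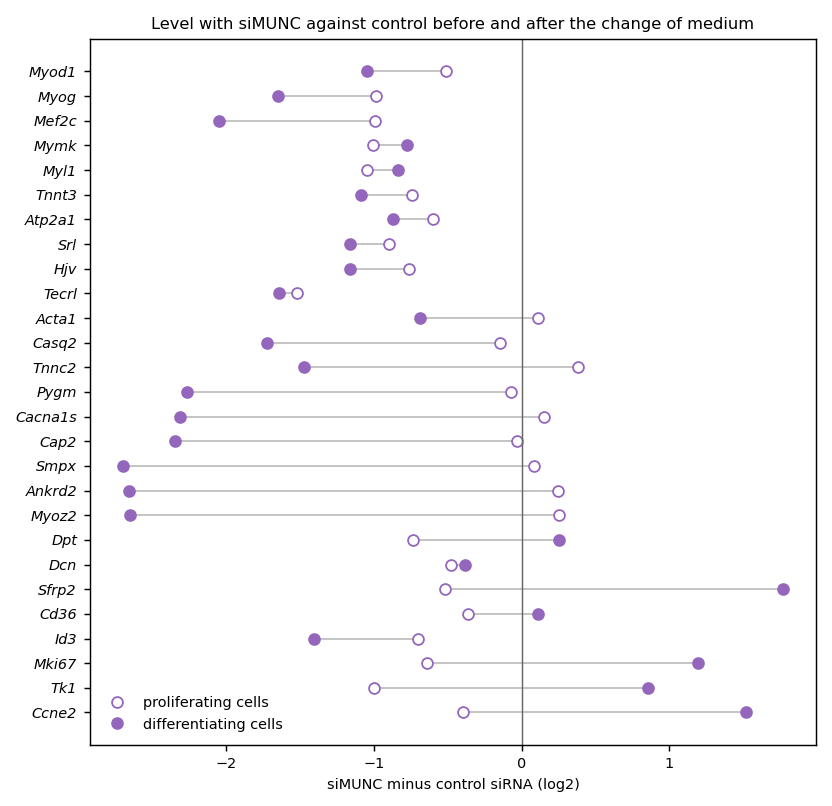
siMUNC minus control on the log2 scale (x axis) for 27 named genes, 1 line per gene, with open symbols for proliferating and filled symbols for differentiating cells. Myog starts at -0.98 and Ankrd2 at 0.25, while Ankrd2 ends at -2.66.

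Other members differed more with siMUNC than in control cells. Sfrp2, a secreted Frizzled-related protein that binds Wnt ligands, read 7.50 and 10.80 on the siMUNC arrays and 8.02 and 9.03 on the control arrays, so its difference was 3.30 against 1.01. Car3, a carbonic anhydrase abundant in slow muscle, read 11.40 and 13.15 on the siMUNC arrays and 12.03 and 12.50 on the control arrays. Serping1, the C1 inhibitor of complement, read 8.32 and 10.10 on the siMUNC arrays and 9.41 and 10.31 on the control arrays. Sfrp2 and Car3 were brighter on the differentiating siMUNC array than on the differentiating control array, while Serping1 started lower and ended below it. Of the 22 Wnt genes, Sfrp2 and Dkk3, a Dickkopf family member (1.04), were past 2-fold higher and 0 lower, with a list median of 0.15. Of 20 complement, carrier and liver-type genes, 5 were past 2-fold higher and 0 lower, with a median of 0.27, among them Fmo1, a flavin monooxygenase (2.00 against 1.64), and Apod, apolipoprotein D (1.45 against 0.91). The fifth of these, C1qtnf3, of the C1q and TNF related family, differed less with siMUNC, by 1.81 against 2.24.

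Matrix genes differed from member to member. Of 24 proteoglycans and matrix glycoproteins, 7 were at least 2-fold higher and 1 lower, with a median of 0.12, and of 18 collagen chains 2 were higher and 0 lower, with a median of 0.13. Dpt read 6.98 and 11.68 on the siMUNC arrays and 7.71 and 11.43 on the control arrays. Dcn, the small leucine-rich proteoglycan decorin, read 10.70 and 13.00 on the siMUNC arrays and 11.17 and 13.38 on the control arrays. Aspn, asporin, of the same family, read 6.29 and 9.60 on the siMUNC arrays and 6.61 and 10.69 on the control arrays. All 3 were brighter in differentiating cells, Dpt by more with siMUNC, Aspn by less, and Dcn by nearly the same, with an order of the arms that turned when arrays were centred. Lum, lumican, was dim at 5.13 and 6.84 with siMUNC, so it is no member, and read 5.52 and 10.39 in control cells. Col6a1 and Col6a2, chains of collagen VI in the muscle basement membrane, differed by 1.49 and 1.5 against 1.59 and 2.03. Adamts5, a proteoglycan-cleaving protease (2.25 against 2.28), and Mmp2, a gelatinase (1.02 against 1.34), were 2 of 3 proteases and inhibitors past 2-fold among 19, with 0 lower and a median of 0.12. Among 16 integrin, laminin and dystrophin complex genes 1 was higher, Sgca, alpha-sarcoglycan, at 1.21, and 0 lower, with a median of 0.24.

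In the IGF axis, 3 of 14 genes were at least 2-fold higher and 0 lower, with a median of 0.38. Igf2, the growth factor that myoblasts secrete when they differentiate, read 7.66 and 9.67 on the siMUNC arrays and 7.78 and 12.07 on the control arrays. Igf1, just under the level threshold with siMUNC, read 6.91 and 8.39 on the siMUNC arrays and 6.37 and 9.36 on the control arrays. H19, the noncoding RNA gene beside Igf2, read 12.39 and 13.61 on the siMUNC arrays and 13.38 and 13.91 on the control arrays. The siMUNC difference minus the control difference was -2.27 for Igf2, -1.51 for Igf1 and 0.69 for H19. Of 26 TGF-beta, BMP and activin genes, Bmp4, a BMP ligand (1.60 against 1.33), Mstn, the growth inhibitor myostatin (1.43 against 1.08, dim on both siMUNC arrays and past 2-fold under only 3 of 5 other scalings, 0.75 at the lowest), and Tgfbr2, a TGF-beta receptor (1.02 against 0.59), were past 2-fold and 0 were lower, with a median of 0.16. In the Notch list of 12, Dll1, a ligand, was the only gene past 2-fold at 1.92 against 1.66, and the median was -0.02. Of 27 immediate early and ERK feedback genes, 2 were higher and 1 lower, with a median of 0.00 that turned sign under centring and quantile normalization. Spry1, a Sprouty inhibitor of receptor kinase signalling, read 7.38 and 10.29 on the siMUNC arrays and 7.77 and 10.08 on the control arrays, and Egr1, a zinc finger factor, differed by 1.14 against 0.67. Spry1 was also the only gene past 2-fold among 16 satellite and reserve cell markers, whose median was 0.13.

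Among 21 cytokine and NF-kB response genes, 3 were at least 2-fold higher and 0 lower, with a median of 0.02 that turned sign under centring. These were Cxcl13, a B cell chemokine (2.64 against 2.22), Il33, an alarmin (1.71 against 1.08), and Cxcl12, the ligand of Cxcr4 (1.15 against 1.10). None of 15 interferon response genes was past 2-fold, with 0 higher, 0 lower and a median of 0.20. Of 16 p53 targets only Perp, a cell death and desmosome gene, was past 2-fold, and the median of 0.01 turned sign under centring and quantile normalization. Perp read 9.14 and 10.58 on the siMUNC arrays and 9.18 and 8.87 on the control arrays, so the arms differed in direction. Cholesterol synthesis genes differed little: 0 of 16 were past 2-fold, 14 of 16 were above 0 against 46.2% of all genes, and the median was 0.34 with siMUNC and -0.14 in control cells. All 16 had the higher signed difference in siMUNC cells (13 to 16 under other scalings), and all 16 (14 to 16) were lower than control in proliferating siMUNC cells, by a median of 0.38 (-0.38, siMUNC minus control), where over all genes 43.1% were lower. The proliferating siMUNC array enters both of these values. Cyp51, lanosterol demethylase, had the highest difference of the list and read 10.45 and 11.15 on the siMUNC arrays and 11.10 and 11.20 on the control arrays.

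**Figure D4:**
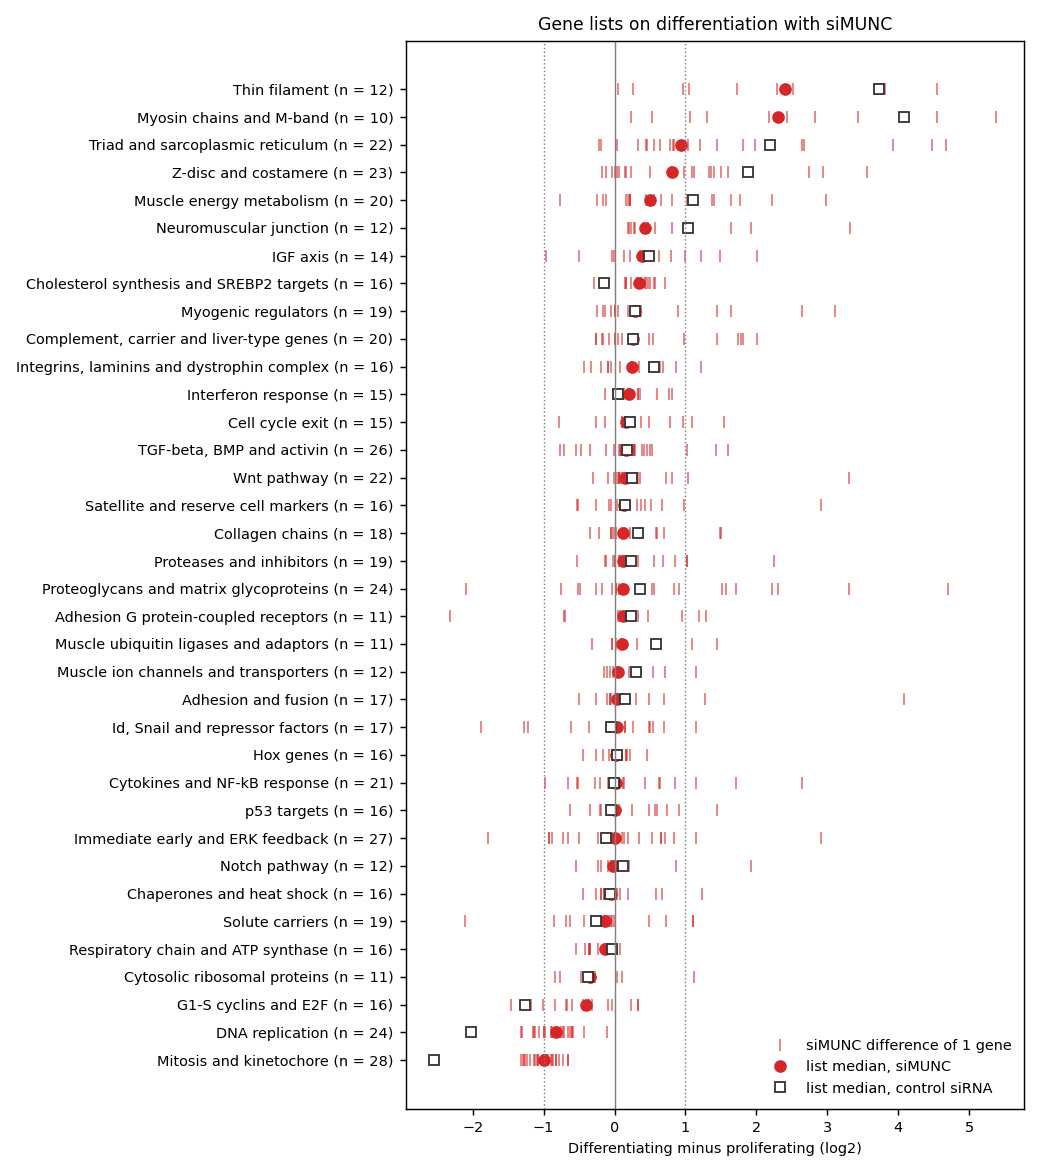
Median log2 difference on differentiation of the gene lists in siMUNC cells and in control cells (x axis, log2 units; 1 line per list, with the number of measured genes; ticks are single genes with siMUNC, circles the siMUNC median, squares the control median). The thin filament median is 2.40 with siMUNC and 3.73 in control cells, and the mitosis median -0.99 and -2.54.

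The labelled cell type was checked against markers. All 8 myoblast markers were measured, 0 were past 2-fold with siMUNC, and their median was 0.25. All 8 myotube markers were at least 2-fold higher, with a median of 4.31 with siMUNC and 4.75 in control cells, and the sum of their linear values went from 1961 to 32211 between the siMUNC arrays. Of 8 fibroblast markers, Dpt, Dcn and Lum were past 2-fold higher in both arms and 0 were lower, with a median of 0.27. The siMUNC difference of the dim Lum was past 2-fold under only 3 of 5 other scalings, 0.45 at the lowest. The sum of the linear values of the 8 markers was 3207 and 13177 on the siMUNC arrays and 4037 and 16614 on the control arrays. Of the 8, 3 were members, 7 lay above 0 with siMUNC and 1, Thy1 (-0.12), below. Dpt, Dcn and Lum are also in the matrix list, and their part in the result of that list was not tested. Of 7 smooth muscle markers 1, Tagln, was past 2-fold lower and 0 higher, with a median of -0.29. Of 7 adipocyte markers 1 was past 2-fold higher, Lpl, lipoprotein lipase, at 1.19, and 0 lower. The other 6 lay below 0, and the list median was -0.15. Of 5 neuron markers 1 was past 2-fold lower, Nefl, a neurofilament, at -1.19 against -2.87, and 0 higher. Below 0 were 4 of the 5, with a median of -0.04. None of 4 osteoblast, 6 chondrocyte, 6 macrophage and 6 endothelial markers was past 2-fold, with 0 in either direction.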

How the data were processed

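Total RNA from 4 C2C12 cultures was labelled with biotin and hybridised to Affymetrix whole-transcript mouse arrays, as the labels' protocols say, with 1 array for each group. The authors deposited a value for each transcript cluster on each array. Per the submitters' processing notes the program was Affymetrix Expression Console, whose version, like the background correction and normalization, is not given in the sources used here. Values as deposited were taken as log2 from their range, and every fold rests on that. Without scanner files, a low level was the only sign of a weak signal, and precision is limited by the number of arrays.

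Of 23332 clusters, 14996 had 1 gene symbol, 1019 several and 7317 none in the platform's gene table, which can be old. Each of 14860 genes took its brightest cluster by the mean of all 4 arrays. No further normalization was applied, and the work was done in Python 3.11.15 with pandas 2.3.3. A difference is that of 2 arrays, counted past 2-fold (a log2 difference of 1), with no test. Promoter windows and gene names came from RefSeq, build GRCm38.p6; the counting was tested on simulated data.

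Genes named in the text were drawn mainly from the 30 highest and 30 lowest members and from 36 gene lists and 10 marker lists. From the lists these were mostly genes past 2-fold or at either end. Further sources were the 15 highest and 15 lowest differences between the arms, and 5 genes on each side of the level threshold. Not every gene of these sets is named. Gene model names and olfactory and vomeronasal genes were left out. The members and lists were chosen with earlier results of these data known, so their counts are no independent support. The alternatives tried were centring on the array median, quantile and cyclic loess normalization (limma 3.58.1 in R 4.3.3), an offset of 50, a floor at the 25th percentile, other filters on level, other cluster choices, and fold thresholds of 1.5 and 4.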

Additional observations from a re-analysis of the deposited data

Results flagged for a closer look

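For 6 named members the control pair of arrays and the siMUNC pair moved in opposite directions in the deposited values, with 1 array per group. The difference of the differences was at least 1 log2 unit in size. That difference was not tested for any of them. Cldn1, a tight junction claudin, differed by 2.6 with siMUNC (6.77 and 9.37 in proliferating and differentiating cells) and by -0.16 in control cells (6.25 and 6.09), a gap of 2.76. Clca3b, of the calcium-activated chloride channel regulator family, gave 0.40 and -1.64, a gap of 2.05. Mcpt8, a serine protease gene, gave 0.31 and -1.72, a gap of 2.03. In Clca3b and Mcpt8 the arm that moved past 2-fold was the control arm. Perp gave 1.44 and -0.31, a gap of 1.75. Rpl22, a ribosomal protein gene, gave 1.12 and -0.02, a gap of 1.14. Its control difference was next to 0 and turned sign when arrays were centred. Its proliferating siMUNC array (8.15) lay below the other 3 (9.27 to 9.31). Adgrg1, an adhesion receptor that myoblasts express, went the other way, with -0.71 and 0.71, a gap of -1.42. Among list genes that are no members, Lmod1, a smooth muscle leiomodin, gave -0.34 with siMUNC and 1.77 in control cells, and Rsad2, an interferon response gene, gave 0.01 and -1.21.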

How the results depend on the processing

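Under the 5 other scalings and backgrounds, members at least 2-fold higher numbered 188 to 234 and members lower 70 to 139, with the lowest counts under an offset of 50. With a level threshold at the 75th percentile of gene means, 110 members were higher and 48 lower, and 65 and 42 of these had the smaller difference in siMUNC cells. Fewer genes enter under that threshold. A 1.5-fold threshold gave 494 higher and 446 lower, and a 4-fold threshold 57 and 3. With no filter on level 299 were higher and 123 lower. With the level threshold set on the mean of the 4 arrays, not on the higher siMUNC value, it was 192 and 85. All 30 named differences between the arms kept their sign under the 5 scalings. They had been picked as the highest and lowest such differences in the same values. The scalings moved them by far less than their size, so the kept signs were fixed by that choice and are no support for them. Some genes named above or below as past 2-fold with siMUNC were within 2-fold under at least 1 of these scalings and backgrounds. They were Bub1, Cavin4, Dkk3, E2f7, Ercc6l, Fabp3, Heyl, Hspb3, Hspb7, Kcnj2, Lum, Mmp2, Mstn, Myl6b, Rpl22, Slc40a1, Tagln, Tgfbr2 and Tpx2. Casq2, Casq1, Trdn, Cd36, Myoz2, Smpx and Aspn stayed past 2-fold under all 5, but with differences smaller by over 1.5-fold at the lowest. No paired analysis was possible because each group has 1 array and the labels give no replicate numbers, and for the same reason no array could be left out.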

Other observations

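Few housekeeping and patterning genes were past 2-fold in siMUNC cells. Of 16 respiratory chain and ATP synthase genes 0 were past 2-fold in either direction. Below 0 were 13 of the 16, where over all genes 53.7% were. The median was -0.14, with Ndufb8, a complex I subunit, lowest at -0.54. Of 16 Hox genes 0 were past 2-fold in either direction, between 0.46 for Hoxc6 and -0.45 for Hoxc10, and the median of 0.03 turned sign when arrays were centred. Of 11 cytosolic ribosomal protein genes, which share sequence with many pseudogenes and are uncertain for that, 1 was higher and 0 lower, with a median of -0.35. Of 16 chaperones 1 was higher, the dim muscle heat shock gene Hspb3 (1.23), and 0 lower, with a median of -0.04. Of 12 muscle ion channels and transporters, 1 of them a member, Kcnj2, an inward rectifier potassium channel, was past 2-fold at 1.14 and 0 were lower, and the median of 0.05 turned sign when arrays were centred. Of 11 adhesion receptors 2 were higher, the latrophilins Adgrl2 (1.20) and Adgrl3 (1.29), and 1 was lower, Adgrg3. Of 19 solute carriers 2 were higher, Slc24a3, a sodium-calcium exchanger (1.11), and Slc40a1, the iron exporter ferroportin (1.11, dim on both siMUNC arrays), and 1 was lower, Slco4a1.

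Among transcript clusters outside the gene-level comparison, 319 with several genes lay above the level threshold on a siMUNC array, and 6 were at least 2-fold higher and 5 lower (3.45%). In control cells it was 16 higher and 29 lower of 331 (13.6%). Among clusters with no gene in the table, 8 were higher and 12 lower of 2514 (0.796%) with siMUNC, and 28 and 61 of 2634 (3.38%) in control cells.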
